A study of Rattus norvegicus with 48 samples.

Results

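The miR-146 family was followed as 3 mature strands, rno-miR-146a-5p, rno-miR-146a-3p and rno-miR-146b-5p, which were taken by name from the 763 mature rat miRNAs listed for every library, of which 629 had at least 1 read in some library. The small RNA libraries came from serum and ulna bone of male ZDF rats, which are homozygous for a leptin receptor mutation (fa/fa) and become diabetic, and of lean wild-type (WT) rats, which were Zucker lean (+/+). All rats, controls included, carried a surgical defect in the femur, were fed a high-fat, high-carbohydrate chow and were treated for 12 weeks from the age of 11 weeks. Serum came from 5 placebo, 5 PTH and 4 anti-sclerostin rats of the WT genotype, and from 5 placebo, 5 PTH, 4 anti-sclerostin and 4 insulin rats of the ZDF genotype. Ulna groups were WT and ZDF with placebo or PTH, with 4 libraries each. PTH (parathyroid hormone) was given at 75 µg/kg on 5 days a week, the antibody against the bone formation inhibitor sclerostin at 25 mg/kg 2 times a week, and insulin at a dose raised from 0.5 to 13 IU. By the study's methods the bones came from rats that also gave serum, apart from 2 of the 4 bones of ZDF rats with PTH. Which bone belongs to which serum is not in the labels, so tests between tissues treat rats that gave both as independent, and no measure of inflammation was among the values used.

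MiR-146a and miR-146b are encoded by separate genes. NF-kB, acting downstream of Toll-like and interleukin-1 receptors, switches on their transcription, and the mature miRNAs repress the adaptor proteins IRAK1 and TRAF6 of the same pathway, so that they are known as negative feedback regulators of innate immune signalling. MiR-146a is abundant in cells of the myeloid and lymphoid lineages, circulates in serum, and in bone has been studied mainly in osteoclast formation.

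The mature sequences from RefSeq (rat assembly GRCr8) are given first because the near-identity of both 5p strands limits how well reads can be told apart. The seed, bases 2 to 8 counted from the 5′ end, is in capitals.
rno-miR-146a-5p: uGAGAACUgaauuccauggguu
rno-miR-146b-5p: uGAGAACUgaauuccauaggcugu
rno-miR-146a-3p: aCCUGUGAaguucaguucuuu
rno-miR-146b-3p: cCUAGGGAcucaguucuggug
The seed GAGAACU was held by 2 of the 693 mature rat miRNAs in the reference table, which were rno-miR-146a-5p and rno-miR-146b-5p. Their first 17 bases were identical. They differed by G18A and U21C, with the base of rno-miR-146a-5p first and positions counted from the 5′ end, and rno-miR-146b-5p had 2 further bases at its 3′ end. The study kept reads from 17 nt upwards and allowed 1 mismatch to the miRNA reference, so a read trimmed to 17 nt holds no base that separates both strands. The partner strand rno-miR-146b-3p, which was also listed in the files, had a seed of its own, as did rno-miR-146a-3p.

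The hairpin precursors are shown with both mature arms in capitals, since the 5p arm gave nearly all reads.
Mir146a: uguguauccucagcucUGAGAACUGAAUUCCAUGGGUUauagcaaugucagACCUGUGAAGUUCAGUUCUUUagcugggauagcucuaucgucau
Mir146b: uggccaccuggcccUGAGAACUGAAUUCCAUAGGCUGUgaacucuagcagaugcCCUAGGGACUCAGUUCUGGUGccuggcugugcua
In GRCr8, Mir146a lies on the minus strand at chr10:28349996-28350090, within the non-coding locus LOC134480673 and between the protein-coding genes Atp10b and Pttg1. Mir146b lies on the plus strand at chr1:255144860-255144947, overlaps C1h10orf95, and has Cuedc2 and Mfsd13a as its protein-coding neighbours. The mature rno-miR-146a-5p maps to chr10:28350053-28350074 and rno-miR-146b-5p to chr1:255144874-255144897.

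Rno-miR-146a-5p dominated the family in both tissues. It had 75 to 637 reads in each of the 32 serum libraries and 54 to 2272 in each of the 16 bone libraries. By mean CPM (reads scaled to a common library total, as in edgeR's counts-per-million) it ranked 47 of 534 detected miRNAs in serum and 56 of 603 in bone. Rno-miR-146b-5p had 5 to 178 reads in serum and 16 to 475 in bone, and ranked 110 in serum and 106 in bone. Rno-miR-146a-3p stayed at 0 to 6 reads per library in both tissues, with a sum of 22 reads over 14 of 32 sera and of 21 reads over 7 of 16 bones. Thus there were 376 reads of the 5p strand for each read of the 3p strand of miR-146a in serum, and 617 in bone. Rno-miR-146b-3p was as rare, with 9 reads in serum and 11 in bone. In WT placebo sera rno-miR-146a-3p had 0, 1, 1, 2 and 6 reads, and the 5 ZDF placebo and 4 WT anti-sclerostin sera had 0, a count that still allows up to 3 reads per library. It passed the minimum count of edgeR (filterByExpr) in none of the comparisons, so no fold change is given. When every miRNA with at least 1 read was tested instead, ZDF against WT placebo serum reached FDR = 0.0979 for rno-miR-146a-3p, a call that rests on these 10 reads against 0. That test also put it lower in bone than in serum in WT placebo (FDR = 0.0856, 8 reads against 10) and WT PTH rats (FDR = 0.154, 1 read against 4).

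Total miRNA reads ran from 28015 to 205664 in serum and from 41627 to 1398702 in bone, so that bone levels rest on more reads, except in the WT PTH bones (41627 to 282285). The tissue labels fitted their markers. All 3 osteoblast and mesenchyme miRNAs tested were called higher in bone than in serum under placebo in both genotypes, as were all 4 skeletal muscle miRNAs. Of all miRNAs tested, 41.9% (WT) and 46.0% (ZDF) were called higher in bone, and 38.7% and 40.1% lower. In both genotypes 4 of 5 leukocyte and 3 of 4 erythrocyte miRNAs were called lower in bone, and 1 leukocyte miRNA higher. The summed liver markers (miR-122) did not exceed 10.9 CPM in any bone. The 82 pairs of libraries of the same group had a chi-square of at least 15.3 per degree of freedom over their counts, above what sampling of reads gives, so no library was counted as a repeat of another.

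Levels are CPM with library sizes adjusted by the trimmed mean of M values (TMM) within a tissue. Differences are log2 fold changes (log2FC) of edgeR's quasi-likelihood test with the Benjamini-Hochberg false discovery rate (FDR) over all miRNAs tested, and a miRNA was called at FDR < 0.2, the threshold of the study. The SE of a log2FC was derived from the F statistic of that test. The 95% confidence intervals take normal limits around the estimate, so they are somewhat narrower than the F-test implies. The treatment comparisons within a genotype share their placebo group. The paper credits the placebo groups to the earlier reports of the PTH and insulin rats, and the anti-sclerostin groups to a separate report. Comparisons of anti-sclerostin with other groups may thus cross studies, although the paper describes the ZDF rats as randomized among the treatments.

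**Figure D1:**
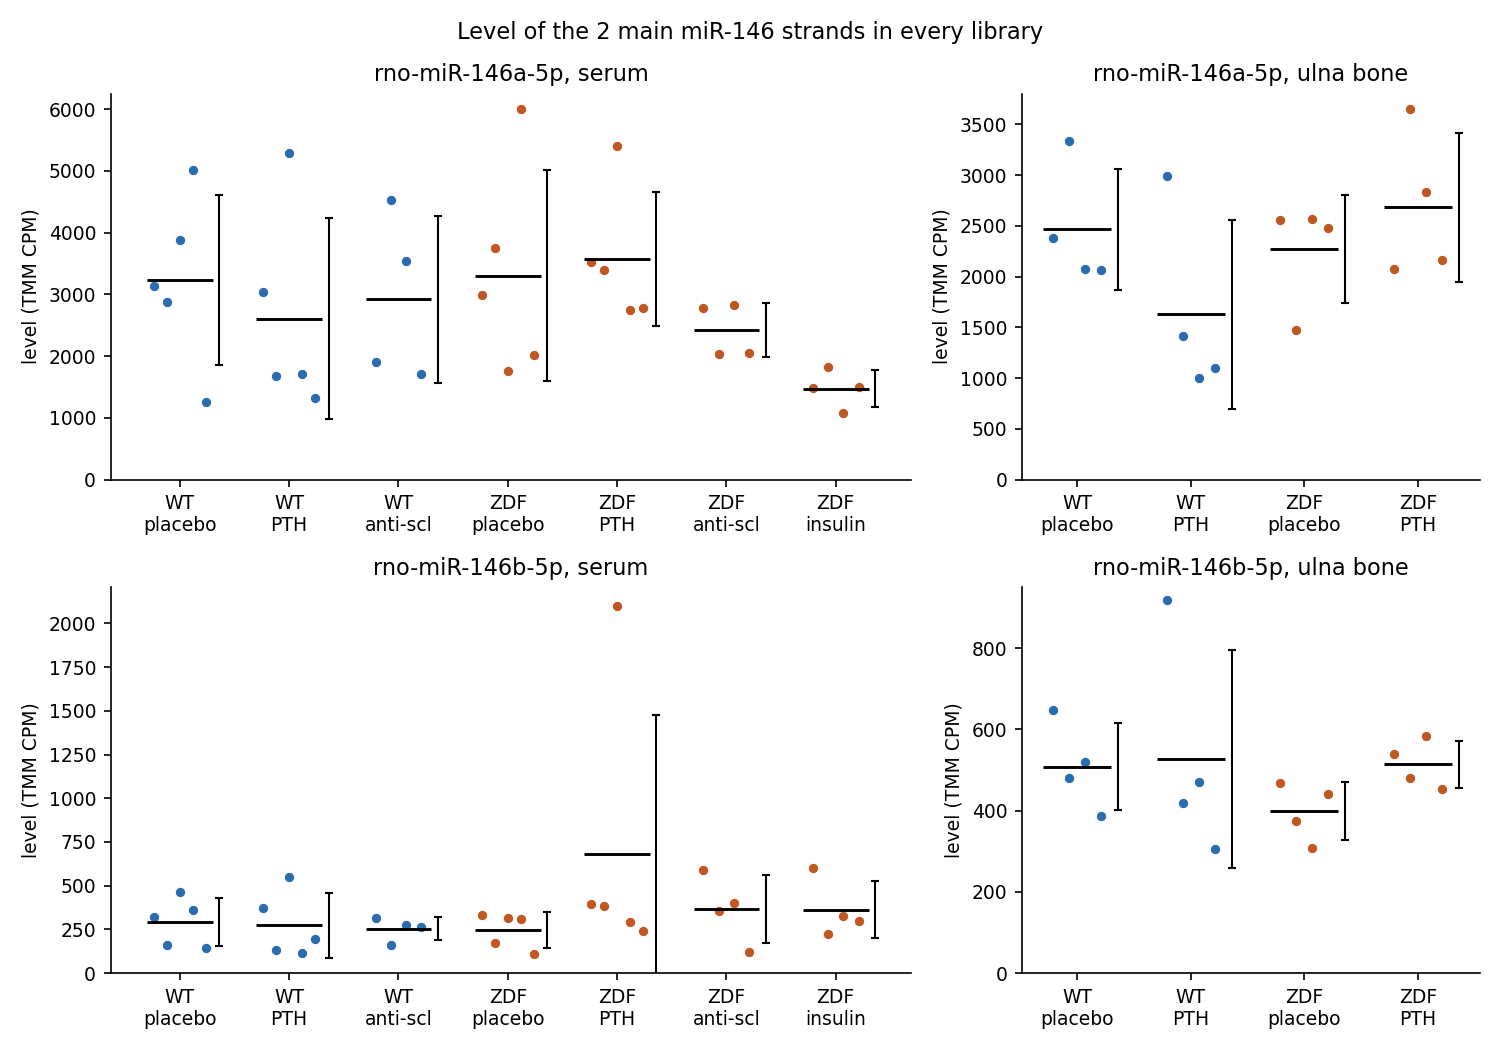
Levels in TMM-adjusted CPM of rno-miR-146a-5p (top) and rno-miR-146b-5p (bottom) in serum (left) and ulna bone (right). Each point is a library (blue WT, orange ZDF), the horizontal line is the group mean and the bar beside it is the SD, drawn from 0 where the mean minus the SD is negative; the 4 insulin sera lie between 1081 and 1828 for rno-miR-146a-5p, and 1 ZDF PTH serum stands at 2097 for rno-miR-146b-5p.

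Rno-miR-146a-5p was lower in serum of ZDF rats treated with insulin than in those with placebo, while rno-miR-146b-5p was not called in either direction. The placebo sera of ZDF rats held 2992, 3745, 1763, 6000.2 and 2020 CPM of rno-miR-146a-5p (mean 3304 ± 1702, SD, n = 5). The sera of insulin-treated ZDF rats held 1488, 1828, 1081 and 1502 CPM (mean 1475 ± 306, SD, n = 4). All but the highest insulin serum lay below the lowest placebo serum, and the groups overlapped by that serum alone. The edgeR log2FC was −1.16 (SE 0.34, 95% confidence interval −1.83 to −0.49, FDR = 0.0646), a level of 0.448 times that under placebo.

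Of the 151 miRNAs tested in that comparison 26.5% were called, and 15.2% were called lower, so a call was common there. The exact permutation test of the log2 levels of rno-miR-146a-5p gave a two-sided p = 0.0317 (smallest possible 0.0159 for 4 against 5 rats), which became 0.381 after adjustment over the 12 comparisons within a tissue. For rno-miR-146b-5p, the placebo sera had 332, 173, 316, 312 and 107 CPM and the insulin sera 599, 223, 328 and 300.4 CPM. These ranges overlapped broadly, and the log2FC was 0.53 (SE 0.42, 95% confidence interval −0.29 to 1.34, FDR = 0.446).

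Markers of erythrocytes moved with insulin in the same sera. All 4 of 4 erythrocyte miRNAs were called higher, led by rno-miR-451-5p, which derives from red blood cells (log2FC 2.33, SE 0.32, FDR = 0.000315). The summed level of the 4 ran from 238765 to 375131 CPM in the insulin sera and from 89211 to 170993 CPM in the placebo sera, without overlap, and none of the 4 was at 0. The erythrocyte ratio, log2 of rno-miR-451-5p to rno-miR-23a-3p, which is used as a haemolysis index of serum, was 3.52 ± 0.25 under insulin and 0.68 ± 0.74 under placebo (SD, n = 4 and 5). With that ratio as a covariate the log2FC of rno-miR-146a-5p was −0.85 (SE 1.16, FDR = 0.876) and no miRNA at all was called. The estimate of rno-miR-146b-5p then turned to −1.58 (SE 1.21, FDR = 0.831). The ratio did not overlap between both groups, so erythrocyte content and insulin treatment cannot be told apart in these sera.

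The scaling mattered as well. When the synthetic RNAs added at serum extraction set the library size, the log2FC of rno-miR-146a-5p was −0.19 (FDR = 0.832), and the median of all miRNAs tested moved from −0.10 to 0.72. Relative to that median rno-miR-146a-5p was lower by a similar margin under both scalings, at −0.91 and −1.06. That comparison had 40 calls with TMM, of which 17 were higher and 23 lower. Its calls were 27 higher and 0 lower with the extraction controls (edgeR), 9 higher and 50 lower with the totals of miRNA reads and 4 higher and 29 lower with the totals of all reads.

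Of the 12 other miRNAs listed as linked to NF-kB or Toll-like receptor signalling, 6 were tested in the insulin comparison, 2 were called lower and 0 higher, beside the 15.2% of all miRNAs called lower there. The called miRNAs were rno-miR-21-5p (log2FC −0.82, FDR = 0.0646), an abundant miRNA with many reported roles in inflammation and fibrosis, and rno-miR-125a-5p (log2FC −1.05, FDR = 0.116), which targets negative regulators of NF-kB. The median log2FC of the 6 was −0.69 against −0.10 over all miRNAs tested. Rno-miR-155-5p, the NF-kB-induced miRNA most often paired with miR-146a and named here for that role rather than for its values, had 5 to 13 reads under placebo and 3 to 6 under insulin, and did not reach the minimum count.

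Markers of leukocytes, the cells in which miR-146a is abundant, gave 1 call of 5 in the same comparison. It was rno-miR-150-5p of mature lymphocytes (log2FC −1.27, FDR = 0.0646). The summed leukocyte level ran from 25461 to 27456 CPM under insulin and from 24304 to 46115 CPM under placebo, with the insulin sera inside the placebo range. Both liver strands of miR-122 were called lower (2 of 2), with rno-miR-122-3p at a log2FC of −1.67 and rno-miR-122-5p at −1.37, and summed liver levels of 274 to 781 CPM under insulin and 196 to 2073 CPM under placebo. The part of these cell sources in the level of rno-miR-146a-5p was not tested.

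**Figure D2:**
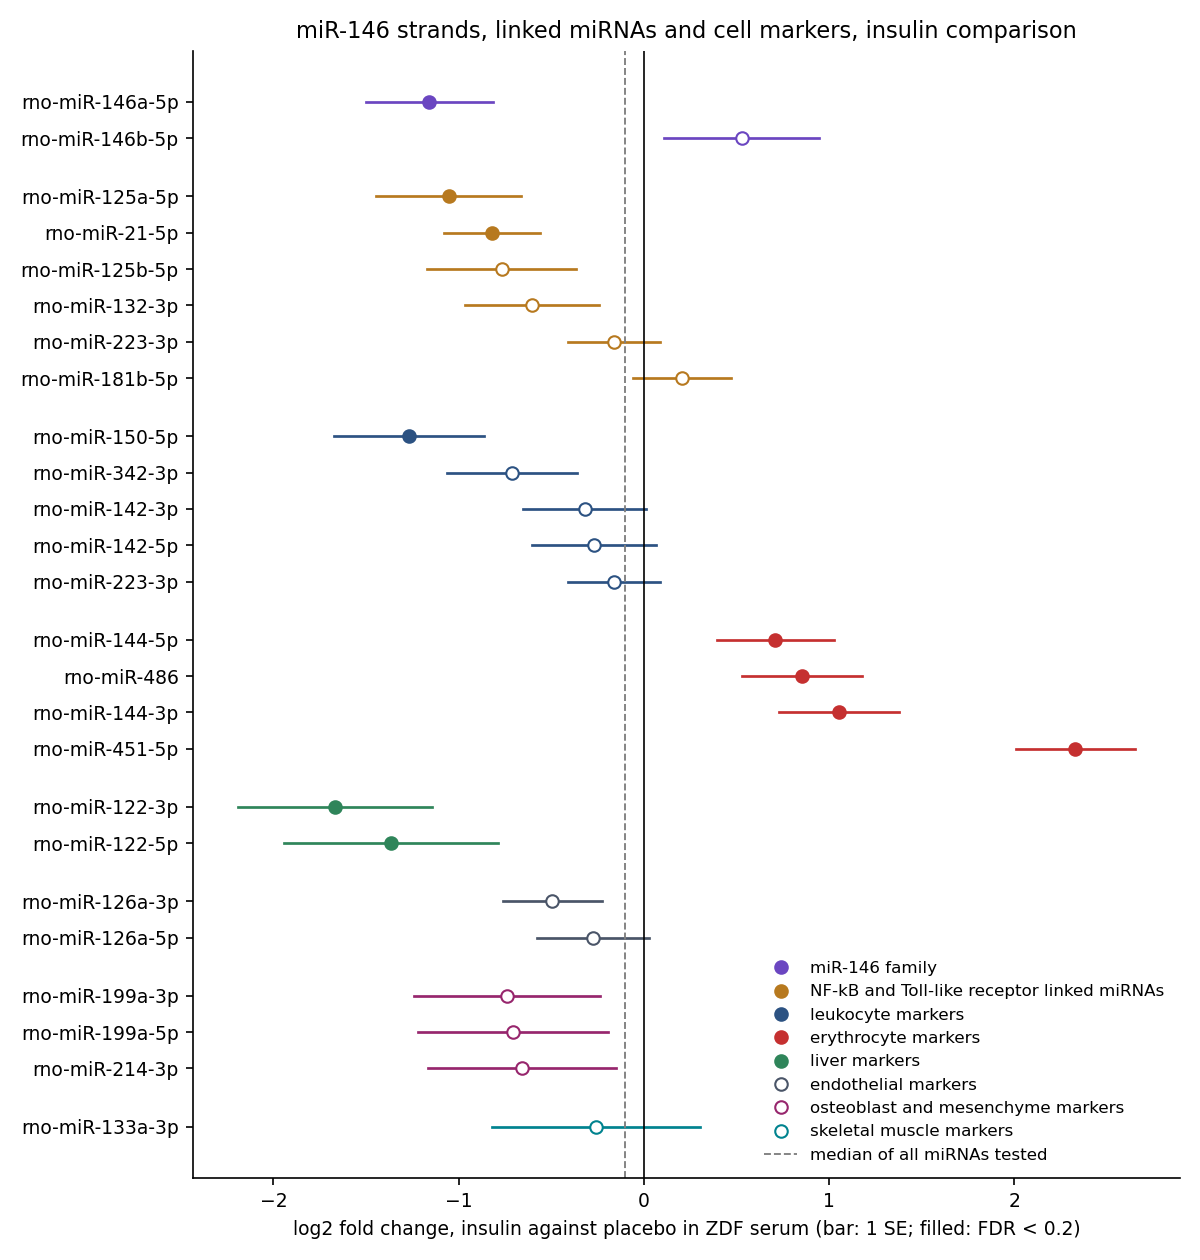
Log2 fold changes of the miR-146 strands, of the other miRNAs linked to NF-kB and Toll-like receptors, and of cell type markers in sera of ZDF rats with insulin against placebo, on the log2 scale. Points are edgeR estimates, bars are 1 SE, filled points have FDR < 0.2 and the dashed line is the median of all miRNAs tested; rno-miR-146a-5p lies at −1.16 beside rno-miR-125a-5p and rno-miR-21-5p, and the 4 erythrocyte markers lie to the right of 0.

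ZDF and WT rats under placebo did not differ detectably in either 5p strand, in serum or in bone. Serum of WT rats under placebo had 3142, 2879, 3879, 5010.2 and 1262 CPM of rno-miR-146a-5p, a mean of 3234 ± 1378 (SD, n = 5), against 3304 ± 1702 in ZDF rats. The ranges covered each other almost entirely. The log2FC of ZDF against WT was −0.03 (SE 0.39, 95% confidence interval −0.79 to 0.74, FDR = 0.989). Rno-miR-146b-5p had 291 ± 137 CPM in WT and 248 ± 102 CPM in ZDF serum (log2FC −0.31, SE 0.44, FDR = 0.864), while 6.10% of the 164 miRNAs tested were called. Scaling to all reads gave calls for both strands (−0.85 and −1.01) and scaling to the extraction controls one for rno-miR-146b-5p (−1.33), with the median of all miRNAs at −0.87 and −1.03, and relative to those medians the estimates lay between −0.30 and 0.02.

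In ulna bone under placebo, rno-miR-146a-5p stood at 2386, 3333, 2075 and 2069 CPM in WT rats and at 2561, 1474, 2569 and 2481 CPM in ZDF rats. Of the ZDF bones 3 lay within the WT range, and the fourth lay apart, below every WT bone. The log2FC was −0.16 (SE 0.30, 95% confidence interval −0.75 to 0.44, FDR = 0.834). Rno-miR-146b-5p had 509 ± 107 CPM in WT and 399 ± 71.4 CPM in ZDF bone (log2FC −0.38, SE 0.29, FDR = 0.467), in a comparison that called 17.0% of 135 miRNAs. Of the NF-kB-linked list, 5 were tested there and 2 were called, both lower in ZDF bone, namely rno-miR-125b-5p (log2FC −1.33, FDR = 0.171) and rno-miR-125a-5p (log2FC −0.89, FDR = 0.197). Rno-miR-155-5p of that list was below the abundance limit and lay the other way. It had 79.1 to 117 CPM in ZDF bone (11 to 97 reads) and 22.5 to 59.5 CPM in WT bone (5 to 41 reads). These ranges did not overlap, as was the case for 14.1% of the 135 miRNAs tested. The leukocyte markers rno-miR-142-5p and rno-miR-150-5p were called lower in ZDF bone (2 of 5 tested), and the 5 leukocyte markers summed to 4484 to 5585 CPM in ZDF and 6149 to 9432 CPM in WT bone, without overlap. All 3 osteoblast and mesenchyme markers were called lower in ZDF bone, led by rno-miR-214-3p (log2FC −2.14, FDR = 0.114), and summed to 13995 to 16644 CPM in ZDF and 21946 to 43986 CPM in WT bone, also without overlap. Of the 4 skeletal muscle markers, rno-miR-1-3p and rno-miR-206-3p were called higher (log2FC 1.23 and 1.16), and the sums overlapped, at 79058 to 430333 CPM in ZDF and 54905 to 404389 CPM in WT bone. No marker of these 3 lists was at 0 throughout a group, and their part in the levels given here was not tested. Fewer cells of a type and less RNA per cell cannot be told apart in such bulk samples.

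PTH gave no call for either strand in serum. In WT serum the log2FC of PTH against placebo was −0.27 (SE 0.48) for rno-miR-146a-5p and −0.12 (SE 0.55) for rno-miR-146b-5p, both with FDR = 0.992. In ZDF serum rno-miR-146a-5p had a log2FC of 0.14 (SE 0.36, FDR = 0.993). Rno-miR-146b-5p in ZDF sera with PTH read 398, 382, 2097, 294 and 239.6 CPM, against the 107 to 332 CPM under placebo given above. A single serum, with 178 reads, stood far above the other 4, which partly overlapped the placebo range.

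The log2FC of that comparison was 1.42 (SE 0.56, 95% confidence interval 0.33 to 2.51, FDR = 0.993), and 0.54 (SE 0.39, FDR = 0.988) without the high serum. When every miRNA with at least 1 read was tested with all 10 sera, it was 1.51 and passed the threshold (FDR = 0.0945), and the exact permutation test of the log2 levels gave p = 0.143. That same serum had the highest erythrocyte ratio of its group (4.29, the other 4 lying between −1.43 and 1.55), with erythrocyte markers summing to 276289 CPM, and 51220 reads of the extraction controls, the fewest of all sera. The part of these in its level was not tested. Scaled to the extraction controls, both strands were called in that comparison (2.04 and 3.74, with the median of all miRNAs at 1.42). No miRNA was called for PTH in either genotype in serum (0 of 170 in WT and 0 of 154 in ZDF, edgeR), where 2 and 4 had an unadjusted p under 0.05 and DESeq2 called 0 in both. A test of whether the PTH effect differed between genotypes gave 1.50 (SE 0.85, FDR = 0.922) for rno-miR-146b-5p and 0.32 (SE 0.62, FDR = 0.969) for rno-miR-146a-5p in serum, with 0 of 182 miRNAs called and 8 at an unadjusted p under 0.05 (edgeR). Between genotypes under PTH, the log2FC of ZDF against WT serum was 0.39 (SE 0.44) for rno-miR-146a-5p and 1.26 (SE 0.68) for rno-miR-146b-5p, both with FDR = 0.896, and 0 of 158 miRNAs were called (5 at an unadjusted p under 0.05, 0 by DESeq2).

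In bone, rno-miR-146a-5p was 2993, 1414, 1000.4 and 1105 CPM in WT rats with PTH and 2080.2, 3658, 2831 and 2163 CPM in ZDF rats with PTH. In 3 of the 4 WT PTH bones it was lower than in any bone of the WT placebo or ZDF PTH groups, and the fourth lay among them. The log2FC was −0.51 (SE 0.45, FDR = 0.547) for PTH against placebo in WT bone, where 16.8% of 179 miRNAs were called, and 0.67 (SE 0.44, FDR = 0.451) for ZDF against WT under PTH, where 7.89% of 114 were called. Without the high WT PTH bone the latter was 1.22 (FDR = 0.178), past the threshold. Scaled to all reads, both comparisons were called for rno-miR-146a-5p, at −2.21 for PTH and 1.93 for genotype, or −0.98 and 0.91 relative to the median of all miRNAs. The WT PTH bones held 54 to 389 reads of rno-miR-146a-5p, fewer than the 510 to 2272 of the ZDF PTH bones.

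Rno-miR-146b-5p had nearly equal means in WT bone with PTH and with placebo (528 ± 269 CPM against 509 ± 107 under placebo, log2FC 0.10, SE 0.43, FDR = 0.917), and in ZDF and WT bone under PTH (log2FC −0.05, SE 0.42, FDR = 0.986). In ZDF bone, PTH against placebo gave a log2FC of 0.25 (SE 0.29, FDR = 0.847) for rno-miR-146a-5p and 0.39 (SE 0.26, FDR = 0.722) for rno-miR-146b-5p. There 0 of 215 miRNAs were called by edgeR, 13 had an unadjusted p under 0.05 and DESeq2 called 1. The difference between genotypes in the PTH effect on rno-miR-146a-5p was 0.85 in bone (SE 0.54, FDR = 0.632), in a test that called 1.35% of 74 miRNAs, and rno-miR-146b-5p fell below the abundance limit of that test. Of the NF-kB-linked list, 1 of 7 tested was called in WT bone with PTH, rno-miR-125b-5p, at a log2FC of −1.32 (FDR = 0.133).

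Anti-sclerostin gave no call for either 5p strand in serum. In ZDF rats, the 4 treated sera had 2774, 2040.4, 2825 and 2048 CPM of rno-miR-146a-5p, all within the placebo range, for a log2FC of −0.38 (SE 0.38, FDR = 0.670). Rno-miR-146b-5p had 589.6, 354, 401 and 123 CPM, of which 3 exceeded every placebo serum, for a log2FC of 0.60 (SE 0.46, FDR = 0.634), in a comparison calling 5.38% of 130 miRNAs. In WT rats, rno-miR-146a-5p had 1907, 4521, 3539 and 1707 CPM (log2FC −0.28, SE 0.42, FDR = 0.723) in a comparison calling 3.70% of 108 miRNAs, and rno-miR-146b-5p had 161 to 316 CPM and fell below its abundance limit. ZDF against WT under the antibody gave −0.17 (SE 0.41, FDR = 0.964) and 0.65 (SE 0.48, FDR = 0.839) for the 2 strands, with 0.855% of 117 miRNAs called. The effect of the antibody differed between genotypes by −0.10 (SE 0.58, FDR = 0.939) and 1.00 (SE 0.65, FDR = 0.822), in a test that called 0 of 189 miRNAs (edgeR, 4 at an unadjusted p under 0.05).

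Over these 11 comparisons within a tissue other than insulin, 0 of 21 adjusted tests of both 5p strands passed FDR < 0.2 by edgeR, and rno-miR-146b-5p for anti-sclerostin in WT serum had no FDR. Of the 22 fits, 1 had an unadjusted p under 0.05 (rno-miR-146b-5p for PTH in ZDF serum, with its single high library) and DESeq2 called 0. The confidence intervals reached 2.59 on the log2 scale at the widest, so these group sizes left wide limits on an effect in serum.

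**Figure D3:**
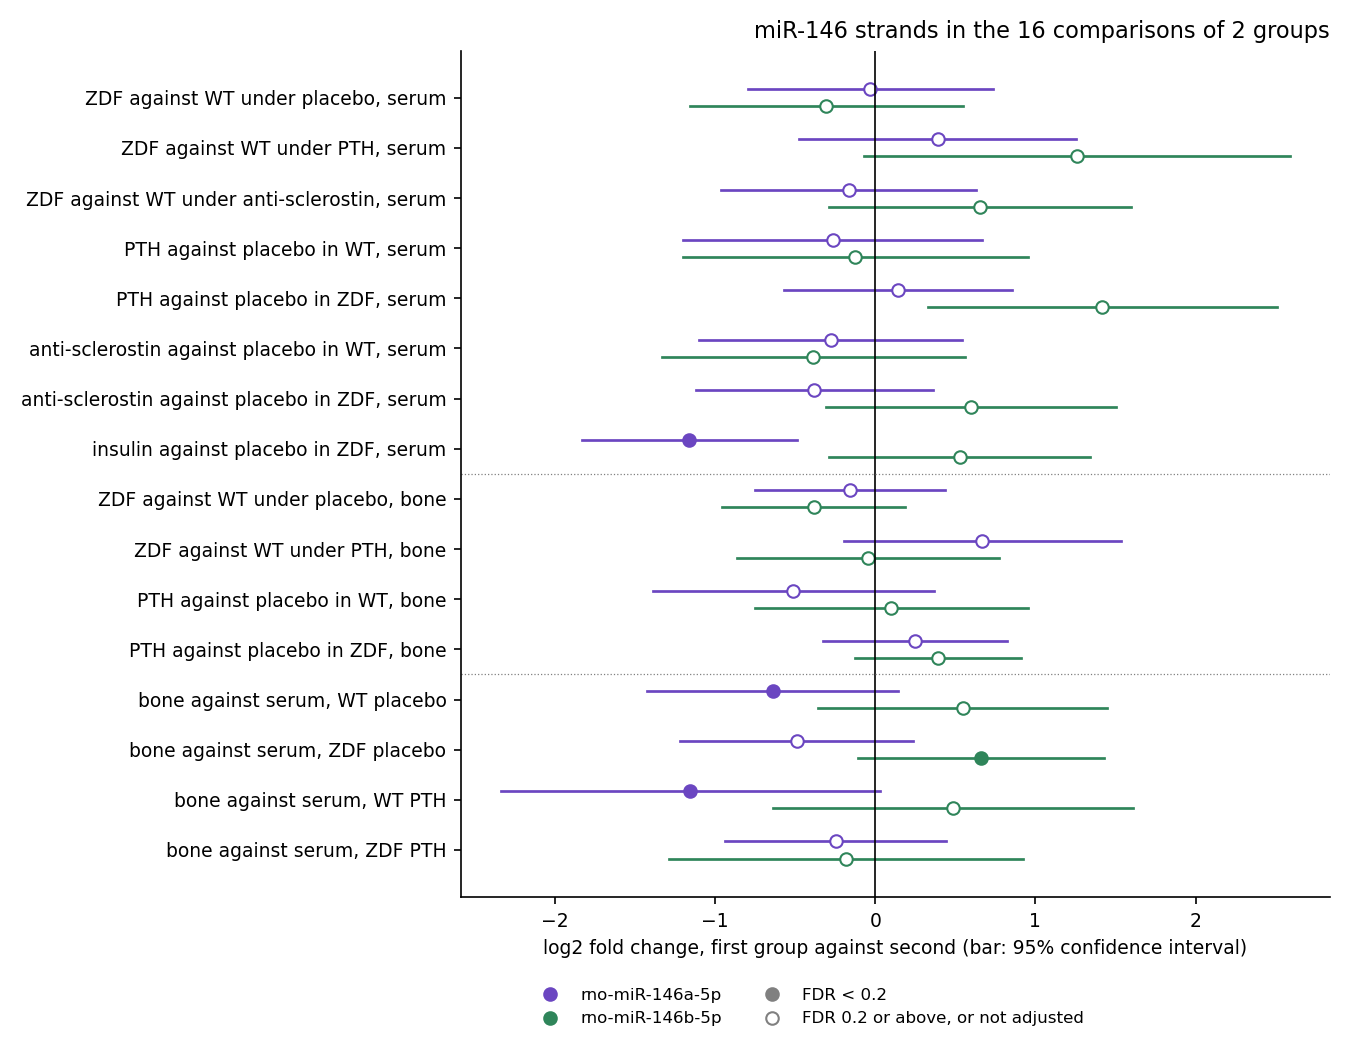
Log2 fold changes of rno-miR-146a-5p (purple) and rno-miR-146b-5p (green) in the 16 comparisons of 2 groups, with 95% confidence intervals as bars. Filled points have FDR < 0.2; within a tissue only rno-miR-146a-5p under insulin (−1.16) is filled, and 3 of the 8 bone-against-serum points are.

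Ordered by mean level in serum, rno-miR-146a-5p was highest in ZDF PTH (3570.5 CPM), followed by ZDF placebo, WT placebo, WT anti-sclerostin, WT PTH, ZDF anti-sclerostin (2422 CPM) and ZDF insulin (1475 CPM). Neighbours in that order did not differ beyond their spread (exact permutation p from 0.579 to 0.968) except for the last pair. There the 4 anti-sclerostin sera all lay above the 4 insulin sera (p = 0.0286, the smallest that an exact test of 4 against 4 allows, and 0.514 after adjustment over the 18 neighbouring pairs). What share of all miRNAs also had no overlap between these groups was not computed, and the pair was reached only by sorting the means. The paper credits these groups to different earlier reports. Serum rno-miR-146b-5p ran from 682 CPM in ZDF PTH to 248 CPM in ZDF placebo. The first place rested on the serum with 2097 CPM, without which the ZDF PTH mean was 328 CPM, below ZDF anti-sclerostin (367 CPM) and ZDF insulin (363 CPM). No neighbours differed beyond their spread (exact permutation p from 0.460 to 0.943). In bone, rno-miR-146a-5p ran from 2683 CPM in ZDF PTH to 1628 CPM in WT PTH and rno-miR-146b-5p from 528 CPM in WT PTH to 399 CPM in ZDF placebo, with exact permutation p of at least 0.143 between neighbours.

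Between tissues the estimates of the 2 strands had opposite signs in 3 of 4 group pairs, though few passed the threshold. Rno-miR-146a-5p had a log2FC of bone against serum of −0.64 (SE 0.40, FDR = 0.162) in WT placebo, −0.49 (SE 0.37, FDR = 0.233) in ZDF placebo, −1.15 (SE 0.60, FDR = 0.0872) in WT PTH and −0.25 (SE 0.35, FDR = 0.533) in ZDF PTH rats. Rno-miR-146b-5p had 0.55 (SE 0.46, FDR = 0.301), 0.66 (SE 0.39, FDR = 0.134), 0.49 (SE 0.57, FDR = 0.463) and −0.18 (SE 0.56, FDR = 0.780) in the same order. Without the ZDF PTH serum with 2097 CPM, the last value turned to 0.61 and was called (FDR = 0.153). Hence 1, 1, 1 and 0 of the 2 strands were called, whereas 80.6%, 86.1%, 79.9% and 81.6% of all miRNAs tested were called in the 4 comparisons. Each of these calls was lost when some rat was left out, and the calls depended on the scaling. With library totals of miRNA reads, rno-miR-146a-5p lost its call in WT placebo (−0.47) and WT PTH (−0.83), and rno-miR-146b-5p gained one in both (0.72 and 0.87). RLE size factors and DESeq2 made the same exchange in WT placebo, and RLE added a call for rno-miR-146a-5p in ZDF placebo (−0.60).

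With TMM over both tissues, rno-miR-146b-5p in ZDF placebo rats averaged 450 CPM (449.7 ± 114, SD, n = 4) in bone and 227 ± 91.5 CPM (SD, n = 5) in serum, with no overlap (exact permutation p = 0.0159, the smallest for 4 against 5), as was the case for 66.8% of the 202 miRNAs tested. The scaling set the direction of rno-miR-146a-5p. With all reads as the library size its log2FC turned to 2.00, 2.22, 0.55 and 2.20, because the median of all miRNAs moved to between 1.87 and 3.10, and relative to that median it remained lower by 0.56 to 1.32. Bone and serum RNA were extracted by different procedures, and the extraction controls had at most 65 reads in bone against at least 51220 in serum, so tissue and extraction cannot be told apart.

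The share of rno-miR-146b-5p among the reads of both 5p strands uses no library size and is therefore free of the scaling. How reads too short to separate both strands were assigned could affect it and was not tested. In serum under placebo it was 9.26, 5.24, 10.7, 6.72 and 10.3% in WT rats and 10.0, 4.41, 15.2, 4.95 and 5.04% in ZDF rats, with broad overlap (exact permutation p = 0.762). Under insulin it was 28.7, 10.9, 23.3 and 16.7% (mean 19.9 ± 7.75, SD, n = 4), against a mean of 7.92 ± 4.66 under placebo. Of the 4 insulin sera 3 lay above every placebo serum. The difference of 12.0 percentage points had an exact permutation p = 0.0317 (0.127 after adjustment over 12 comparisons). The erythrocyte ratio of the same sera ran from 3.18 to 3.79 under insulin and from −0.49 to 1.41 under placebo. Erythrocyte content and insulin treatment therefore cannot be told apart for the share either. Counting error was wide in single sera, as the 95% Wilson interval of the highest insulin serum ran from 21.4 to 37.3% on 87 and 35 reads, and such intervals cover counting error only.

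In bone the share was 21.3, 12.6, 20.0 and 15.8% in WT placebo, 23.5, 22.9, 32.0 and 21.7% in WT PTH, 15.5, 20.3, 10.8 and 15.1% in ZDF placebo and 20.6, 11.6, 17.1 and 17.3% in ZDF PTH. All 4 WT PTH bones lay above all bones of the other 3 groups, the nearest being a WT placebo bone at 21.3%. That gap lay within counting error, with Wilson intervals of 18.3 to 25.6% for the lowest WT PTH bone (21.7%) and 18.4 to 24.6% for the placebo bone. The WT PTH bone at 22.9% had an interval of 14.6 to 34.0% on 54 and 16 reads. Among the WT PTH bones, only that at 32.0% had an interval (26.7 to 37.8%) wholly above that of the placebo bone. PTH against placebo in WT bone differed by 7.57 percentage points and ZDF against WT under PTH by −8.36 points, each with an exact permutation p = 0.0286, the smallest for 4 against 4, and 0.127 after adjustment. Leaving out each rat in turn kept these differences between 5.25 and 8.87 points and between −9.69 and −6.04 points. PTH against placebo in ZDF bone differed by 1.24 points (exact permutation p = 0.657).

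Some cell markers were called in the same WT PTH bones, in a comparison that called 16.8% of the 179 miRNAs tested. PTH against placebo called 2 of 4 muscle markers, rno-miR-133a-3p lower (log2FC −1.83, FDR = 0.112) and rno-miR-1-3p higher (log2FC 1.53, FDR = 0.198). The level of rno-miR-1-3p was widely spread with PTH, from 1520 to 9349 CPM (mean 3649 ± 3805, SD, n = 4), and overlapped the 1038 to 1736 CPM under placebo. The muscle sums ran from 47594 to 70346 CPM with PTH and from 54905 to 404389 CPM with placebo. It called 1 of 3 osteoblast and mesenchyme markers lower, rno-miR-214-3p (log2FC −1.85), with sums of 16696 to 28398 CPM against 21946 to 43986 CPM. It called 1 of 5 leukocyte markers lower, rno-miR-150-5p (log2FC −1.76), with sums of 3742.5 to 7563 CPM against 6149 to 9432 CPM. Of the erythrocyte and endothelial markers it called 0 of 4 and 0 of 2 (edgeR). Between genotypes under PTH, 1 of 4 muscle markers (rno-miR-133a-3p, FDR = 0.0188) and 1 of 4 erythrocyte markers (rno-miR-144-5p, log2FC 1.09) were called higher in ZDF bone, and 1 of 4 leukocyte markers (rno-miR-142-3p, log2FC −1.52) and 1 of 3 osteoblast and mesenchyme markers (rno-miR-199a-5p, log2FC −0.97) lower. Of the endothelial markers 0 of 2 were called there (edgeR), beside 7.89% of the 114 miRNAs tested. The part of these cell sources in the levels and the share was not tested.

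Bone had the higher mean share in every group pair. It exceeded serum by 8.98 percentage points in WT placebo, 7.48 in ZDF placebo, 15.6 in WT PTH and 3.49 in ZDF PTH rats, with exact permutation p of 0.0159, 0.0476, 0.0159 and 0.476. The groups did not overlap in WT placebo and WT PTH rats, and overlapped in both ZDF pairs. In the ZDF PTH sera the share was 7.92 to 10.1% in 4 rats and 28.0% in the serum with 178 reads of rno-miR-146b-5p.

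**Figure D4:**
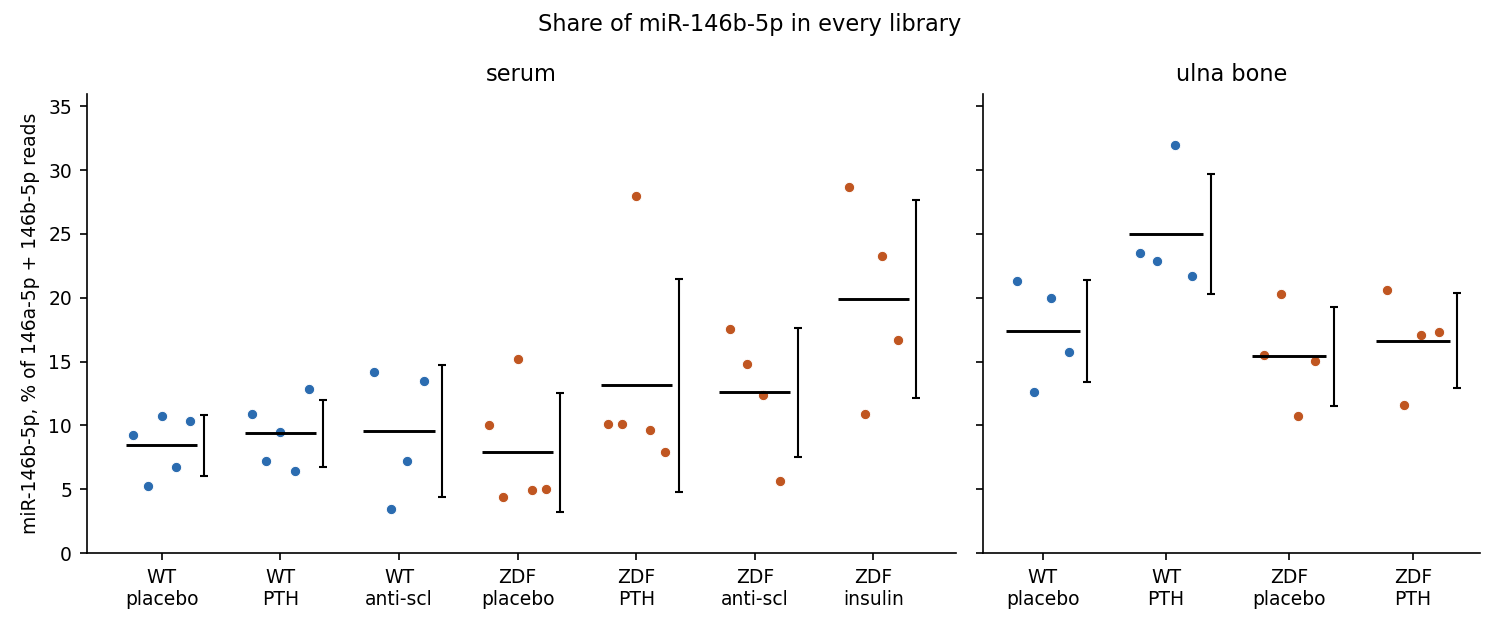
Share of rno-miR-146b-5p in the summed reads of rno-miR-146a-5p and rno-miR-146b-5p, in percent, for each serum (left) and ulna bone (right). Points are libraries (blue WT, orange ZDF), lines are group means and bars are SD; the insulin sera (10.9 to 28.7%) and the WT PTH bones (21.7 to 32.0%) have the highest means of their tissue.

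The levels of both 5p strands tended to rise together across rats within groups. In 10 relations computed over libraries, rno-miR-146b-5p and rno-miR-146a-5p had Pearson r = 0.405 (permutation p = 0.0207, adjusted 0.103) and Spearman rho = 0.367 (permutation p = 0.0405, adjusted 0.136) over 32 sera, and r = 0.410 without the 2 sera farthest from the median of rno-miR-146a-5p. With each group centred on its mean, r was 0.511 (permutation p = 0.00317, adjusted 0.0186). Without the single ZDF PTH serum with 2097 CPM of rno-miR-146b-5p, r was 0.298 overall (permutation p = 0.104) and 0.472 within groups (permutation p = 0.0075). In 16 bones r was 0.441 (permutation p = 0.0881, adjusted 0.172), rho was 0.468 (permutation p = 0.0700, adjusted 0.140), r without the 2 farthest bones was 0.371, and r within groups was 0.585 (permutation p = 0.0193, adjusted 0.0482). Both levels of a library share 1 scaling factor. Reads too short to separate both strands would be counted for either, and how many there were was not tested. The permutations within groups, here and in the relations below, moved the centred levels freely over all libraries. They made no allowance for the group means removed, so these p-values and their adjusted values are too small, and those near 0.05 decide nothing.

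Rno-miR-146b-5p was also correlated with the erythrocyte ratio in serum, at r = 0.439 (permutation p = 0.0112, adjusted 0.103) and rho = 0.410 (permutation p = 0.0199, adjusted 0.136), and at r = 0.496 within groups (permutation p = 0.00372, adjusted 0.0186). Without the 2 sera farthest from the median ratio r was 0.297, and without the single ZDF PTH serum with 2097 CPM it was 0.293 both overall and within groups (permutation p = 0.109 for each), so the relation in serum rested on that serum. In bone r was 0.517 (permutation p = 0.0427, adjusted 0.142), rho 0.50 (permutation p = 0.0509, adjusted 0.136), r within groups 0.659 (permutation p = 0.0057, adjusted 0.0190) and r without the 2 farthest bones 0.494. The ratio is an index for serum, and whether it follows erythrocyte content in bone was not tested. For rno-miR-146a-5p in serum, r with the ratio was −0.146 (permutation p = 0.426), rho −0.141 (permutation p = 0.439) and r within groups 0.0965 (permutation p = 0.599). In bone r was 0.206 (permutation p = 0.446), rho 0.353 (permutation p = 0.181) and r within groups 0.450 (permutation p = 0.0802, adjusted 0.134). Whether the relations differed between both strands was not tested.

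With the leukocyte miRNA rno-miR-142-5p in serum, rno-miR-146a-5p had r = −0.02 (permutation p = 0.899) and rho = 0.0634 (permutation p = 0.729), and rno-miR-146b-5p had r = −0.293 (permutation p = 0.103) and rho = −0.343 (permutation p = 0.0543, adjusted 0.136). In bone rno-miR-146a-5p had r = −0.07 (permutation p = 0.804) and rho = −0.04 (permutation p = 0.892). Rno-miR-146b-5p had r = 0.422 in bone (permutation p = 0.103, adjusted 0.172), rho = 0.412 (permutation p = 0.116), r = 0.637 without the 2 farthest bones and r = 0.518 within groups (permutation p = 0.0406, adjusted 0.0812).

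**Figure D5:**
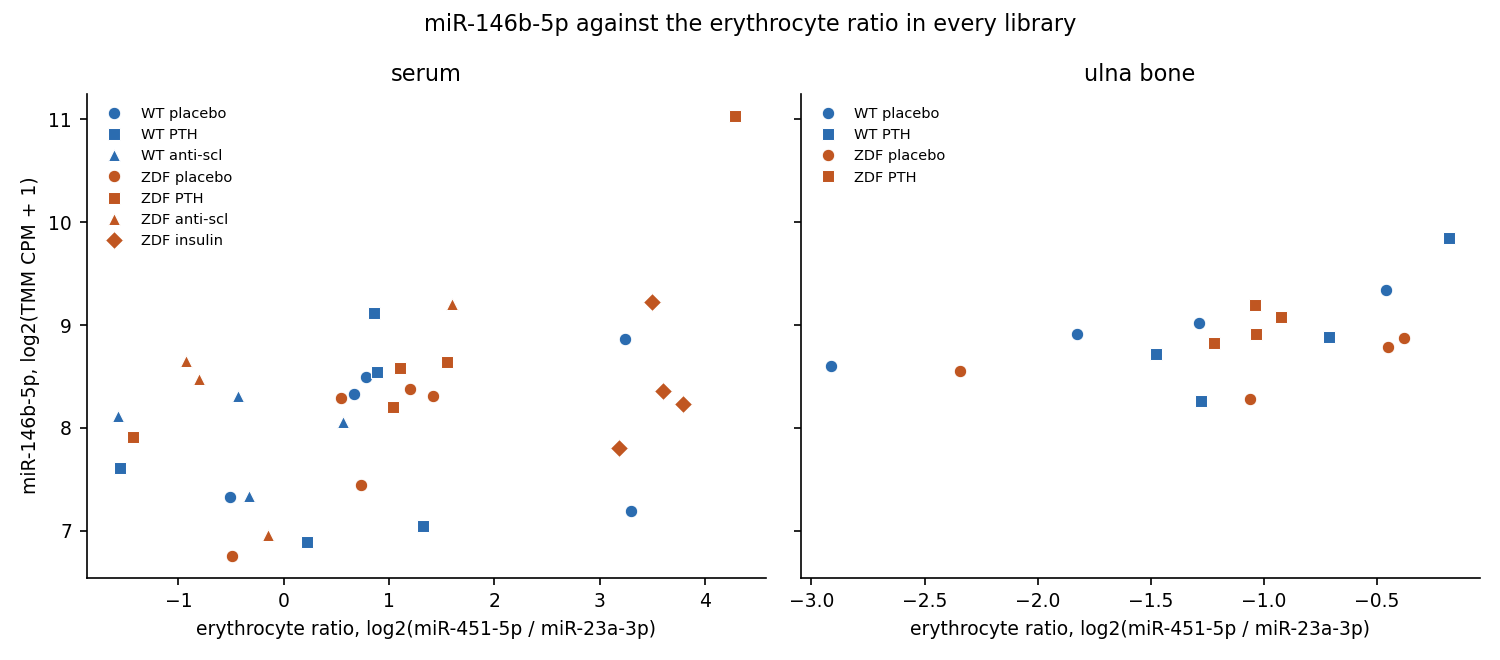
Rno-miR-146b-5p as log2 of TMM-adjusted CPM plus 1, against the erythrocyte ratio, log2 of rno-miR-451-5p to rno-miR-23a-3p, in serum (left) and ulna bone (right). Each point is a library, coloured by genotype and shaped by treatment; in serum the ZDF PTH library at a ratio of 4.29 lies far above the others, and the 4 insulin sera lie at ratios of 3.18 to 3.79.

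The miRNAs whose levels were most like those of the family differed between strands and tissues. Over 32 sera and among 167 miRNAs with a mean of at least 100 CPM, rno-miR-146a-5p was most like rno-miR-30d-5p (Spearman rho = 0.751), rno-miR-200a-3p (0.684) and rno-miR-10a-5p (0.647), and rno-miR-146b-5p most like rno-miR-98-5p (0.652), rno-let-7i-5p (0.625) and rno-miR-186-5p (0.598). Over 16 bones and 175 miRNAs, rno-miR-146a-5p was most like rno-miR-27a-5p (0.685), rno-miR-17-1-3p (0.656) and rno-let-7i-5p (0.585), and rno-miR-146b-5p most like rno-miR-19b-3p (0.709), rno-miR-152-3p (0.688) and rno-miR-148a-3p (0.624). The median rho over all compared miRNAs lay between −0.04 and 0.01. These are descriptions, since the libraries share their scaling and the leading miRNAs were picked from many.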

How the data were processed

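Small RNA-seq was run on 32 sera and 16 ulnae in 11 groups. The authors trimmed reads with cutadapt, kept those of at least 17 nt, aligned them with Bowtie, allowing 2 mismatches against the genome (Rnor 6.0) and 1 against miRBase 22.1, and deposited, per library, a count of reads for each of 763 miRNAs and RPM relative to all reads. The counts were analysed here; the deposited RPM gave the library totals, and a further deposited score column, scaled to miRNA reads, was not used.

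Counts were tested with edgeR 4.0.16 (R 4.3.3): TMM, filterByExpr, the quasi-likelihood F-test on only the groups compared, independent filtering on mean CPM, and Benjamini-Hochberg adjustment over the miRNAs kept, at FDR < 0.2. DESeq2 1.42.0 was an alternative. The exact permutation tests (two-sided) and correlations (100000 permutations) used log2(TMM CPM + 1) in Python 3.11.15 with scipy 1.17.1. The tests were checked on simulated counts. Within a tissue each library was taken as 1 rat; between tissues most rats gave both, which the tests do not model. P-values measure the spread between these samples only. Those of correlations within groups make no allowance for the group means removed and are too small. Wilson intervals cover counting error only.

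Named miRNAs were the 3 family members, the partner strand, list members called in a comparison (at most 4 a list, by smallest FDR), and the 3 most alike by Spearman rho. The members and lists were chosen with earlier results of these data known, and the tests of the share were added after the levels were seen. Replicate numbers only name rats. Alternatives covered scaling, filters, dispersion settings, the erythrocyte covariate, the threshold, pseudocounts and each rat left out. Mature and hairpin sequences came from RefSeq (GRCr8), with all 3 members matched by name.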

Additional observations from a re-analysis of the deposited data

Results flagged for a closer look

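In 22 sets of 4 or 5 libraries (11 groups for each of 2 strands), 2 had a library far from the rest by Dixon's criterion, which chance alone meets in about 1 of 20 such sets. Rno-miR-146b-5p stood at 2097 CPM in ZDF PTH serum replicate 3, where the other 4 sera had 239.6 to 398 CPM. Rno-miR-146a-5p stood at 1474 CPM in ZDF placebo bone replicate 2, where the other 3 bones had 2481 to 2569 CPM. That bone had 1398702 miRNA reads, the most of all libraries, and the lowest erythrocyte ratio of its group (−2.34).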

How the results depend on the processing

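No paired analysis was possible because the labels link no samples across groups, though most bones came from serum donors, and replicate numbers only name rats. Of 390 results of both 5p strands under alternatives other than leaving out a rat, 356 kept direction and side of the threshold, or stayed uncalled, and 16 had the other sign; of 324 with a rat left out, 305 did and 20 had the other sign. Exact tests kept their side in 95 of 96, and the differences in share, of which the runs without each rat were added after seeing the data, in 11 of 11. The cause of the changes below was not tested. All values are log2FC.

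With all reads as library size, ZDF against WT placebo serum was called for rno-miR-146a-5p (−0.85) and rno-miR-146b-5p (−1.01), and for rno-miR-146a-5p in bone so were ZDF against WT under PTH (1.93), PTH in WT (−2.21) and the difference of PTH effects (2.56). Bone against serum then reversed for rno-miR-146a-5p to 2.00 (WT placebo), 2.22 (ZDF placebo), 0.55 (WT PTH) and 2.20 (ZDF PTH) and for rno-miR-146b-5p to 2.42 (ZDF PTH), and rno-miR-146b-5p was called at 3.14 (WT placebo) and 2.16 (WT PTH). With the extraction controls, rno-miR-146b-5p was called at −1.33 in ZDF against WT placebo serum, both strands were called for PTH in ZDF serum (2.04 and 3.74), and insulin lost rno-miR-146a-5p (−0.19). Insulin also lost it with the erythrocyte ratio as a covariate (−0.85) and at FDR < 0.05 (−1.16), where 3 miRNAs remained called. Testing every miRNA with 1 read called rno-miR-146b-5p for PTH in ZDF serum (1.51) and lost rno-miR-146a-5p between WT placebo tissues (−0.47), with or without independent filtering.

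Between tissues, FDR < 0.05 lost rno-miR-146a-5p in WT placebo (−0.64) and WT PTH (−1.15) and rno-miR-146b-5p in ZDF placebo (0.66). In WT placebo, rno-miR-146a-5p was lost and rno-miR-146b-5p gained with RLE factors (−0.53 and 0.67), miRNA read totals (−0.47 and 0.72) and DESeq2 (−0.48 and 0.71). Totals did the same in WT PTH (−0.83 and 0.87), and RLE gained rno-miR-146a-5p in ZDF placebo (−0.60). Without TMM the exact test of rno-miR-146b-5p in ZDF placebo gave 0.74 (p = 0.0952).

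With each rat left out, rno-miR-146a-5p under insulin stayed called, from −1.32 to −0.84 (FDR 0.0271 to 0.198), and ZDF against WT PTH bone ranged from 0.50 to 1.22. Bone against serum ranged from −0.89 to −0.47 (WT placebo), −0.87 to −0.25 (ZDF placebo) and −1.39 to −0.71 (WT PTH) for rno-miR-146a-5p. For rno-miR-146b-5p it ranged from 0.26 to 0.83, 0.26 to 1.09 and 0.19 to 0.91, and from −0.59 to 0.61 in ZDF PTH, reversed without ZDF PTH serum replicate 3 (0.61, FDR = 0.153). Every call of the main test between tissues was lost in some of these runs. The FDR reached 0.384 (WT placebo) and 0.300 (WT PTH) for rno-miR-146a-5p, and 0.545 (ZDF placebo) for rno-miR-146b-5p. Serum libraries of 28015 to 205664 miRNA reads left 5 to 178 reads of rno-miR-146b-5p, and 0 to 6 of rno-miR-146a-3p, which limits both.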
